A study of Saccharomyces cerevisiae with 22 samples.

Results

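The 33 genes described here encode the proteasome and its transcription factor Rpn4. They were taken as a list of symbols, located in the RefSeq annotation of the sacCer3 genome, and made up 33 of the 6002 nuclear protein-coding genes examined. The list held 6 ATPases of the base of the regulatory particle (RPT1 to RPT6), 4 other base subunits (RPN1, RPN2, RPN10 and RPN13), 8 lid subunits (RPN3, RPN5 to RPN9, RPN11 and RPN12), 7 alpha and 7 beta subunits of the core particle, and RPN4. RPN4 encodes a transcription factor and not a structural subunit, so it is given apart from the other 32 genes where roles are described.

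Sus1, a small protein shared by the histone-modifying co-activator SAGA, its variant SLIK and the mRNA export complex TREX-2, was mapped by ChIP-exo, in which an exonuclease trims immunoprecipitated DNA back to the cross-linked protein. The strains were BY4741 haploid budding yeast (Mat a, his3-Δ1, leu2-Δ0, met15-Δ0, ura3-Δ0) carrying a chromosomal SUS1-MYC::HIS3 allele. They were otherwise wild type (WT), spt8::KanMX4 (spt8Δ, which lacks Spt8, a SAGA subunit absent from SLIK), or spt7-1180::KanMX4, in which Spt7 ends after codon 1180 in imitation of the shortened Spt7 of SLIK. The labels call the last strain a deletion of SPT7. Cells grew in rich medium at 25 °C or were moved to 37 °C for 15 min and returned to 25 °C for cross-linking. The labels name 3 replicates for each tagged condition. The methods of the study name fewer. A single peak list per condition was examined, for 6 lists in all. How replicates were combined is not given in the sources used here, so no error between replicates could be computed, no test between conditions was run, and every interval covers counting error only. Libraries without the MYC tag were not analysed here, so peaks that an untagged strain would also give are not separated.

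The proteasome is a barrel-shaped protease whose active sites face an inner chamber. A regulatory particle at each end recognises ubiquitin chains through its receptors, removes them through the lid, and unfolds and threads the substrate through the ATPase ring of its base. In yeast, the genes for these subunits share a promoter element called PACE, which is bound by Rpn4. Rpn4 is itself short-lived because the proteasome degrades it, which closes a feedback loop, and transcription of RPN4 can be raised by the stress factors Yap1, Hsf1 and Pdr1.

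The promoter stretches on which the binding data turn are printed from the R64 reference genome, which is sacCer3, 5′ to 3′ on the strand of each gene. RPT2, an ATPase gene, carried the strongest upstream peak of the set. The 230 bp shown are chr4:437717-437946 on the forward strand and hold both the site and PACE. PRE6, the gene of alpha subunit 4, had an upstream peak in every list, and 160 bp of its promoter are shown, chr15:255087-255246, forward. PRE2, the gene of the chymotrypsin-like beta subunit 5, is shown over 130 bp, chr16:732089-732218, forward. Capitals mark the PACE motif in these sequences, written GGTGGCAAA on the gene's strand or TTTGCCACC where it lies on the opposite strand.
RPT2: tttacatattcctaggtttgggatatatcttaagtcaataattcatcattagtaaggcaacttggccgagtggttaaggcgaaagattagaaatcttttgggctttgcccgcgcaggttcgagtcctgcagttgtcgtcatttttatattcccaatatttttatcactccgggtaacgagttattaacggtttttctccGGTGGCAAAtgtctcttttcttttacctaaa
PRE6: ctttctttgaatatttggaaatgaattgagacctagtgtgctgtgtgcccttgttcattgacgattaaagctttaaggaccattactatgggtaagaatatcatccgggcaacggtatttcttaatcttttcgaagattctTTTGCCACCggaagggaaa
PRE2: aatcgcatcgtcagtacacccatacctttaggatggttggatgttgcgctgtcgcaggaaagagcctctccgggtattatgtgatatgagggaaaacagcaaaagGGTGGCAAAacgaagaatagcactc

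RPN4 has no PACE of its own, and 180 bp of its promoter, chr4:416949-417128 on the reverse strand, are shown because 4 of its upstream summits lie in it. Capitals mark a Yap1 motif (TTACTAA) and then a pair of heat-shock half-sites (TTCNNGAA).
RPN4: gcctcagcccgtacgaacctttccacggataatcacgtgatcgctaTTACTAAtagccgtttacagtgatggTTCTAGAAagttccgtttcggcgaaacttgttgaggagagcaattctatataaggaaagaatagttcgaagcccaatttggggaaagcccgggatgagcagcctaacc

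Shorter stretches show PACE, in capitals, in 4 genes where a Sus1 summit came within 50 bp of it. RPT3 is at chr4:1261495-1261523, RPN3, a lid subunit gene, at chr5:196843-196871, and RPN5, also of the lid, at chr4:190776-190804, all on the forward strand, and PRE8, the gene of alpha subunit 2, is at chr13:86841-86869 on the reverse strand.
RPT3: ctgaaagtaaGGTGGCAAAatagtaaatc
RPN3: acgaaaaacaTTTGCCACCcaagaaagag
RPN5: ttgacttttcGGTGGCAAAatgcaaaggg
PRE8: agcttattaaGGTGGCAAAattgtccccg

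A peak was assigned by its summit, the base of highest read pileup. The windows were the 500 bp before the start codon (upstream), the span from start to stop codon (coding), and the 150 bp after the stop codon (downstream). The fold enrichment of a peak is the pileup at its summit over the local background, each raised by a pseudocount of 1, as deposited. From that fold and the deposited p-value the 2 read numbers were recovered, and 99.994% to 100% of the heights came out whole within 0.05. The lists held 16593 to 20179 peaks. They differed in depth: the lowest background ran from 5.975 reads in WT at 37 °C to 36.26 reads in spt7-1180 at 37 °C, and the median fold ran from 2.335 in the latter to 3.494 in the former. Percentiles, the share of all peaks of the same list with a lower fold, are therefore given for the RPT2 site, for coding summits compared with heat and for some medians. Elsewhere the folds of a gene are given as listed, and a difference in fold between lists is not a measure of a difference in binding. The highest peaks over all lists are named by the fold as listed, which ran higher in the lists of low background.

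Sus1 summits were found upstream of a similar share of proteasome genes and of all genes in 5 of the 6 lists. In spt7-1180 at 25 °C the share of proteasome genes was lower with the 500 bp window and in all the other settings given below. Most of those settings brought the gap within counting error. In WT at 25 °C, 14 of the 33 genes had an upstream summit, or 42.4% (95% Wilson interval 27.2% to 59.2%), against 39.7% of all genes. The number was 18 in WT at 37 °C, or 54.5% (38.0% to 70.2%), against 44.8%. In spt7-1180 it was 6 at 25 °C, or 18.2% (8.61% to 34.4%), against 38.0%, and 16 at 37 °C, or 48.5% (32.5% to 64.8%), against 40.8%. The background share lay inside the interval of the proteasome genes in all of these lists except spt7-1180 at 25 °C, where it lay above it. In spt8Δ 15 genes had an upstream summit at 25 °C, or 45.5% (29.8% to 62.0%), against 41.8%, and 16 did at 37 °C, against 40.2%. A summit reports the mean over the cells of a culture, so that binding in fewer cells and weaker binding in each cell cannot be told apart.

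The 6 genes with an upstream summit in spt7-1180 at 25 °C were RPT2, RPT6, RPN9, RPN12, PRE6 and PRE1. The list of that condition was no shorter than that of WT at 25 °C, with 18085 against 16887 peaks, and its lowest background was higher, 22.215 against 10.775 reads. The background share stayed above the interval of the proteasome genes with lists of equal length (6 genes, 8.61% to 34.4%, against 35%) and with peak midpoints (6 genes, against 37.9%). It lay inside the interval with a q-value under 1e-05 (6 genes, against 33.1%) and with an upstream region of 300 bp (5 genes, 6.65% to 30.9%, against 19.7%). It also lay inside with any overlap of the peak (9 genes, 15.1% to 44.2%, against 43.9%), with 1000 bp (18 genes, 38.0% to 70.2%, against 66.9%) and with summits in coding regions left out (4 genes, 4.82% to 27.3%, against 25.0%). The share of proteasome genes was thus below that of all genes in each of these settings. Whether the gap exceeded counting error depended on the setting, and the count stayed at 6 with the stricter q-value. The part that depth played was not tested beyond these settings.

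**Figure D1:**
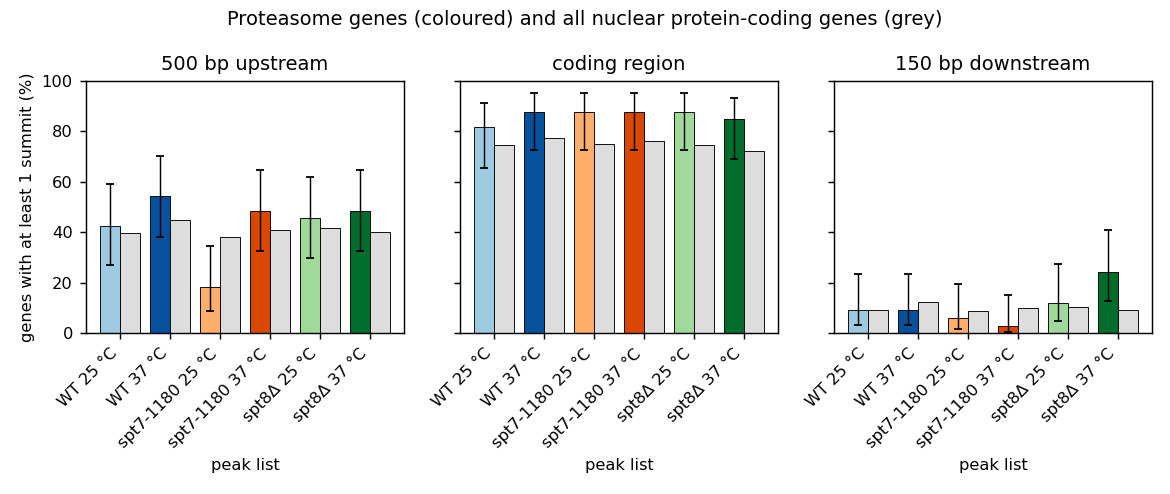
Percentage of genes with at least 1 Sus1 summit (y axis) in the upstream, coding and downstream windows for each of the 6 lists (x axis), with coloured bars for the 33 proteasome genes, 95% Wilson intervals that cover counting error only, and grey bars for all 6002 genes. Upstream of the start codon the coloured bar of spt7-1180 at 25 °C stood at 18.2%, beside 38.0% of all genes.

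By role, the upstream summits were spread over every class of subunit. Of the 6 ATPase genes, 3 and 4 had an upstream summit in WT at 25 °C and 37 °C, 2 and 5 in spt7-1180, and 4 and 3 in spt8Δ. Of the 8 lid genes the numbers were 2 and 4, 2 and 4, and 1 and 3 in the same order. The 7 alpha genes gave 4 and 3 in WT, 1 and 2 in spt7-1180, and 4 and 4 in spt8Δ, and the 7 beta genes gave 4 and 5, 1 and 3, and 4 and 4. Of the 4 other base genes, at most 1 had an upstream summit in any list. Within a class the count ranged widely between lists, from 2 to 5 ATPase genes and from 1 to 5 beta genes, and no order of the classes can be read from groups of this size.

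The strength of the upstream peaks was close to that of all genes in 3 lists, higher in WT at 37 °C and lower in both spt8Δ lists. The median fold of the proteasome genes' upstream summits was 3.05 against 3.06 for all genes in WT at 25 °C and 3.66 against 3.34, with a median percentile of 54.0 against 45.1, in WT at 37 °C. It was 2.66 against 2.67 and 2.27 against 2.31 in spt7-1180 at 25 °C and 37 °C. In spt8Δ at 25 °C it was 2.62 against 3.22, with a median percentile of 22.5 against 45.9. At 37 °C in the same strain the median percentile was 41.5 against 48.4. These are medians over 7 to 26 summits of a list, several of them from the same gene, and were not tested.

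Only RPT2 and PRE6 had an upstream summit in all 6 lists, which was the case for 5.8% of all genes. RPT6, PRE1, PRE2 and PRE4 had one in 5 lists (8.95% of all genes), and RPT3, RPN8, RPN9, PRE10 and RPN4 in 4 (14.9%). RPN2, RPN10, RPN11, PUP2 and PUP3 had none in any list, beside 16.9% of all genes. The median gene was hit in 2 lists, in the proteasome set as over all genes. The silent upstream regions belonged to genes of different roles: Rpn2 is a large scaffold of the base, Rpn10 a ubiquitin receptor, Rpn11 the metalloprotease that removes ubiquitin chains, and Pup2 and Pup3 are an alpha and a beta subunit.

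**Figure D2:**
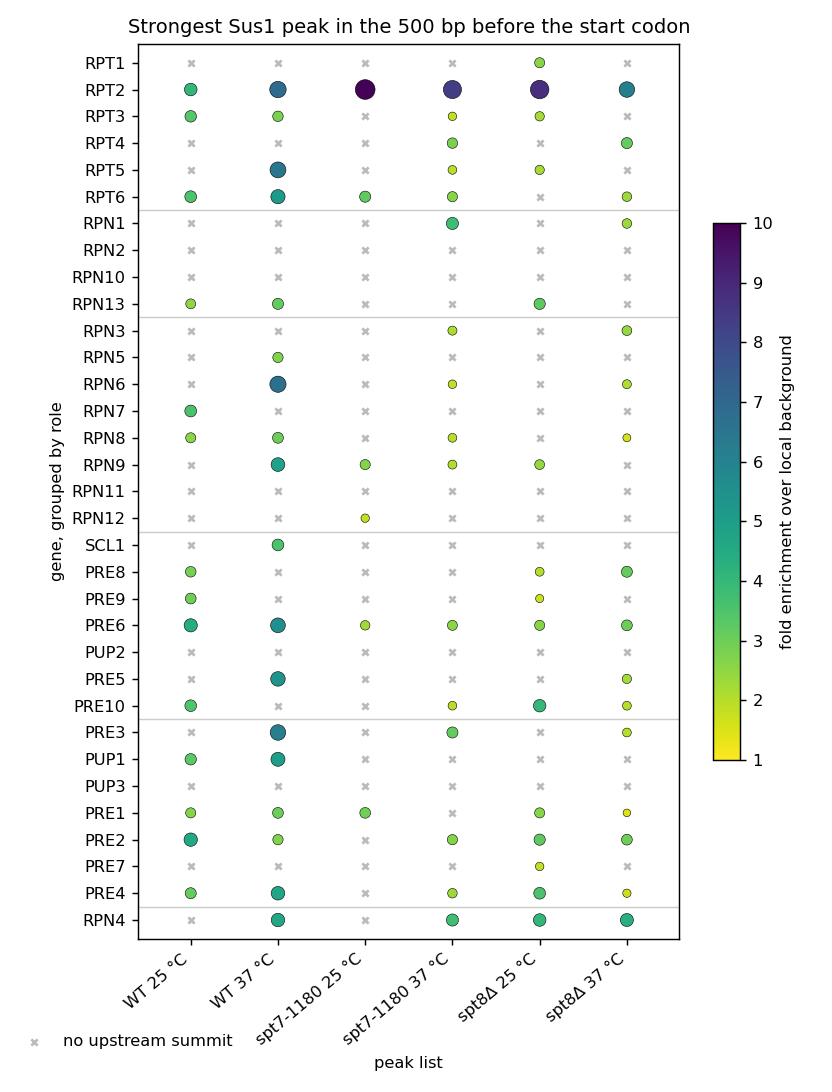
Fold enrichment over local background of the strongest upstream Sus1 peak (colour and point size) for each of the 33 genes (y axis, grouped by role) in each of the 6 lists (x axis), with grey crosses where no upstream summit was listed. RPT2 is the row of large dark points, from 4.08-fold to 9.95-fold, and RPN2, RPN10, RPN11, PUP2 and PUP3 are crosses throughout.

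At RPT2 the same site was found in every list. Its summits lay between 296 and 280 bp before the start codon, at the left end of the printed sequence. The fold was 4.08 (95% Poisson interval 3.02 to 5.39) in WT at 25 °C and 6.88 (5.09 to 9.1) in WT at 37 °C. It was 9.95 (8.71 to 11.32; 230 reads over a background of 22.22) in spt7-1180 at 25 °C and 8.4 (7.5 to 9.38) at 37 °C. In spt8Δ it was 8.78 (6.97 to 10.94) at 25 °C and 6.17 (5.31 to 7.12) at 37 °C. The site stood at percentile 79.39 in WT at 25 °C, at 95.65 in WT at 37 °C and between 99.01 and 99.67 in the 4 mutant lists, so that WT at 25 °C was the lowest list and the mutants were all in the top percent of their peaks.

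This RPT2 site abutted a tRNA gene, YNCD0006W, which spans chr4:437772-437853, or 275 to 194 bp before the RPT2 start codon. A Yap1 motif on the opposite strand lay at 282 to 276 bp. The part that the tRNA gene plays in the peak was not tested. A second RPT2 site nearer the start codon, 73 to 29 bp before it, was weaker and appeared in 4 lists, with folds of 2.12 in WT at 25 °C, 1.91 in spt7-1180 at 37 °C, 3.11 in spt8Δ at 25 °C and 2.25 in spt8Δ at 37 °C. No upstream summit of the other genes lay within 200 bp of a tRNA gene apart from 1 of PRE1, and with such summits left out, a setting added once the data had been seen, PRE6 alone had an upstream summit in all 6 lists.

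PRE6 differed from RPT2 in that its summits moved. In WT at 25 °C they lay 360 and 231 bp before the start codon, with folds of 2.35 and 4.46. In WT at 37 °C they lay at 427 and 96 bp, with 4.34-fold and 5.56-fold, and the nearer of these was 5 bp from PACE. In the mutants there was 1 summit a list, at 372 bp (2.30-fold) and 214 bp (2.57-fold) in spt7-1180 and at 423 bp (2.62-fold) and 213 bp (3.01-fold) in spt8Δ, at 25 °C and 37 °C in turn. Joined within 50 bp, the PRE6 summits made a site at 231 to 213 bp seen in 3 lists and sites at 372 to 360 bp and 427 to 423 bp seen in 2 lists each. The summits at 372 and 360 bp lay within the coding region of YOL038C-A, the divergent neighbour. With summits in coding regions left out, PRE6 therefore had no upstream summit in spt7-1180 at 25 °C. The coding region of PRE6 held 2 summits over all lists.

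PRE2 shares its 600 bp upstream gap with RPL11A, a ribosomal protein gene that is transcribed the other way, so an upstream summit cannot be assigned to either gene alone. It was listed 180 bp before the start codon in WT at 25 °C with 4.59-fold (3.46 to 5.97), which was the strongest upstream peak of the proteasome genes in that list. The summit lay at 249 bp in WT at 37 °C (2.72-fold), at 332 bp in spt7-1180 at 37 °C (2.68-fold), at 203 bp in spt8Δ at 25 °C (3.22-fold) and at 227 bp in spt8Δ at 37 °C (2.98-fold). PRE2 had no upstream summit in spt7-1180 at 25 °C.

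The other genes with upstream summits in 5 lists were weaker or were hit inside a neighbour. PRE4, the gene of beta subunit 7, had folds of 3.12, 4.72, 2.33, 3.53 and 1.76 in WT at 25 °C and 37 °C, spt7-1180 at 37 °C and spt8Δ at 25 °C and 37 °C, all at summits within the coding region of RET2, a vesicle coat gene. RPT6 had 3.55-fold and 5.16-fold in WT, 3.18-fold and 2.65-fold in spt7-1180 and 2.35-fold in spt8Δ at 37 °C, and of these only the last lay outside the coding region of ALG13. PRE1, the gene of beta subunit 4, gave 2.63-fold and 3.01-fold in WT, 2.94-fold in spt7-1180 at 25 °C, and 2.62-fold and 1.47-fold in spt8Δ. None of its sites lay in coding sequence, since its neighbour TIR1 is 1822 bp away.

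Over all lists, 107 upstream summits were counted, and 33 of them, 30.8%, lay in a neighbouring coding region, against 31.0% of the upstream summits of all genes. For 21 genes of the set the upstream neighbour is transcribed the other way, and a summit between them cannot be assigned to either alone. Joined within 50 bp, the summits made 68 sites, of which 47 were seen in a single list, 10 in 2 lists, 6 in 3 and 4 in 4. None was seen in 5, and the RPT2 site was the only one seen in 6. Most of these sites were therefore not shared between conditions at this resolution. Sites were not joined in this way over all genes, so whether the proteasome genes differ from others here was not tested.

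Over the lists, the stretch between 300 and 200 bp before the start codon held the most upstream summits, and it did so within 3 lists, spt7-1180 at 25 °C and spt8Δ at both temperatures. It held 33 of the 107, or 30.8%, against 19.6% of the upstream summits of all genes, and 6 of the 33 were the RPT2 site. The next 100 bp, where PACE lies in most of these promoters, held 8, or 7.48%, against 13.4%. The last 100 bp held 24, or 22.4%, against 15.9%.

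PACE was searched as GGTGGCAAA on either strand of the 500 bp upstream regions. It was present in 27 of the 33 genes, against 1.65% of all genes, and every PACE of the set lay within 300 bp. RPN8, RPN10, RPN13, PRE5, PUP1 and RPN4 had none. Freeing the third base, GGNGGCAAA, added no proteasome gene and raised the share of all genes to 2.75%. The first base of the motif lay 183 to 84 bp before the start codon with a median of 120 bp, and the motif was on the strand of the gene in 19 promoters and on the opposite strand in 8. These matches describe the reference letters alone.

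The distance of the Sus1 summits from PACE was set beside that at the 72 other genes with PACE, a comparison added once the data had been seen. Of the 88 upstream summits of proteasome genes with PACE, 0 fell on the 9 bp of the motif, against 5 of 212 summits, or 2.36%, of the other genes, numbers too small to separate. Within 1 to 50 bp lay 14, or 15.9%, against 22.2%. A further 14 lay 51 to 100 bp away (15.9% against 15.6%), 31 beyond that but within 200 bp (35.2% against 26.4%), and 29 farther (33.0% against 33.5%). Both groups had most of their summits over 100 bp from PACE. The 14 close summits belonged to 10 genes: RPT2, RPT3, RPN3, RPN5, RPN9, PRE8, PRE6, PRE3, PRE1 and PRE2. The closest were those of PRE6 in WT at 37 °C at 5 bp, RPN3 in spt8Δ at 37 °C at 6 bp (2.45-fold) and RPN5 in WT at 37 °C at 8 bp (1.72-fold). Of the 14, only the PRE6 summit and the PRE2 summit of WT at 25 °C, 25 bp from PACE, had a fold above 4. Peak intervals overlapped PACE in 12 cases, in 10 genes that included RPT6 and not PRE1. Such overlaps were not counted at the 72 other genes.

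Upstream summits were also counted over the genes that carry PACE. Of the 27 proteasome genes with PACE, 11, 13, 6, 14, 13 and 13 had an upstream summit in WT at 25 °C and 37 °C, spt7-1180 at 25 °C and 37 °C, and spt8Δ at 25 °C and 37 °C. Of the 72 other genes with PACE, 41.7%, 44.4%, 26.4%, 38.9%, 36.1% and 38.9% did, and of all genes 39.7%, 44.8%, 38.0%, 40.8%, 41.8% and 40.2%. The lowest value of each was that of spt7-1180 at 25 °C, the list with the fewest upstream summits over all genes as well.

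Other stress motifs were rarer than PACE in these promoters. The Pdr1 motif, searched only as the exact letters TCCGCGGA, was in 0 of the 33 upstream regions, against 0.65% of all genes. Variants of it were not searched, and the printed RPN4 sequence holds TCCACGGA, which has a base changed. The count of 0 therefore does not show that these promoters lack a Pdr1 site. The Yap1 motif TTACTAA was in 6 (RPT2, RPN4, RPN7, RPN8, RPN10 and PRE5), against 11.8%, and the half-site pair TTCNNGAA of Hsf1 was in 5 (RPT3, PRE9, PUP1, PUP2 and RPN4), against 21.2%. No PACE overlapped a match of the others in these genes. RPN4 was the only gene of the set with both the Yap1 and the Hsf1 motif in its upstream region.

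**Figure D3:**
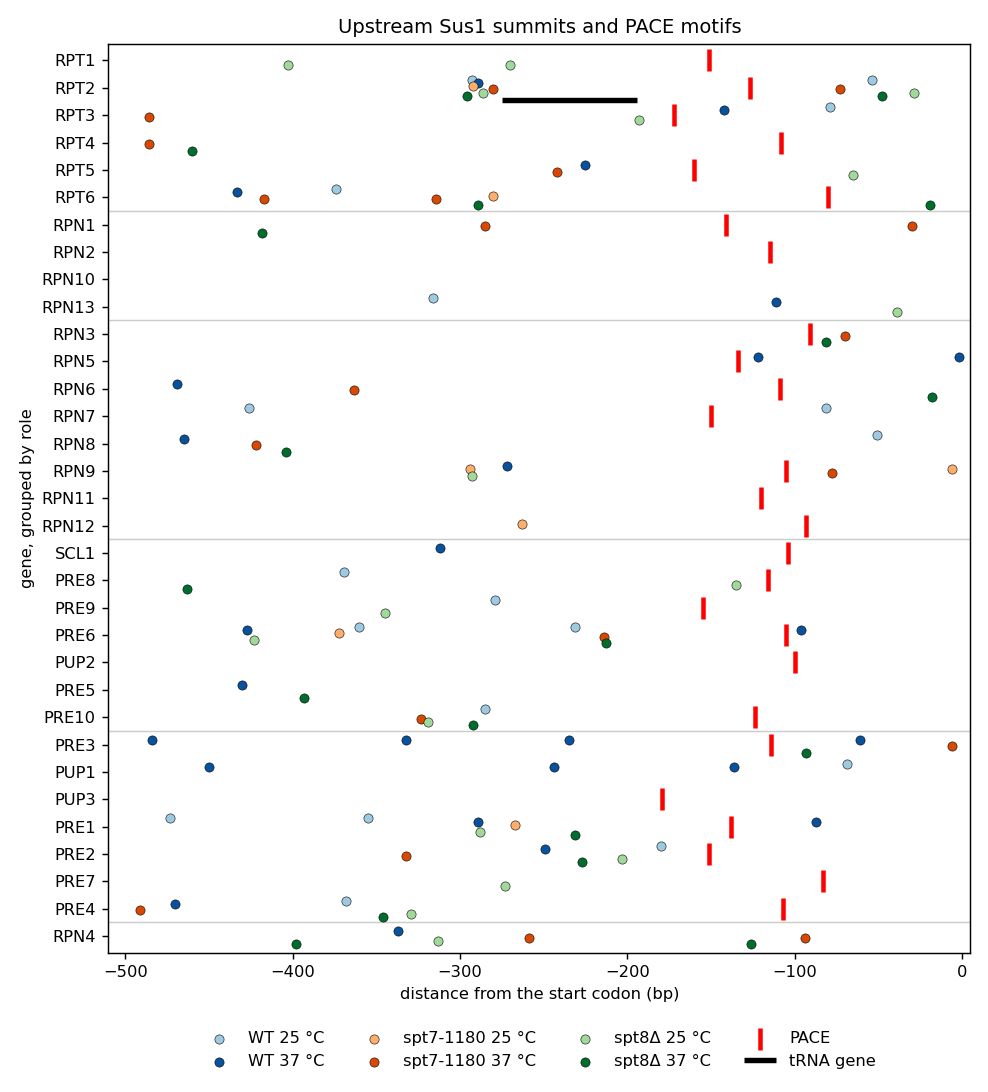
Distance of every upstream Sus1 summit from the start codon in bp (x axis) for the 33 genes (y axis, grouped by role), coloured by list, with red bars for PACE and a black bar for the tRNA gene upstream of RPT2. The PACE bars lie between 183 and 76 bp before the start codon, none of the points falls on them, and the RPT2 points of all 6 lists stack between 296 and 280 bp.

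Heat was compared within each strain by the genes with an upstream summit at 37 °C only or at 25 °C only, here called gained and lost. In WT, 8 proteasome genes gained a summit (RPT5, RPN4, RPN5, RPN6, RPN9, SCL1, PRE5 and PRE3), beside 22.6% of all genes, and 4 lost theirs (RPN7, PRE8, PRE9 and PRE10), beside 17.5%. In spt7-1180, 12 gained one, beside 18.3%, and 2 lost theirs (RPN12 and PRE1), beside 15.5%. In spt8Δ, 8 gained one, beside 17.9%, and 7 lost theirs (RPT1, RPT3, RPT5, RPN9, RPN13, PRE7 and PRE9), beside 19.5%. Gains outnumbered losses in WT and in spt7-1180, whose list at 25 °C was the one with few upstream summits, and were nearly even in spt8Δ. The net change in WT, 4 genes, was 0 with summits in coding regions left out, and that in spt7-1180, 10 genes, was 3 with 300 bp.

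Genes that gained an upstream summit in at least 2 strains, and did not lose it in the third, were RPT4, RPN1, RPN3, RPN6, RPN8, PRE5, PRE3 and RPN4. These were 8 of 33, beside 9.41% of all genes. PRE9, the gene of alpha subunit 3, was the only one that lost its summit in 2 strains, beside 7.56%. The count of gains stayed at 8 with a q-value under 1e-05 and with lists of equal length, and was 4 with an upstream region of 300 bp, 4 with summits in coding regions left out, 5 with any overlap of the peak and 3 with 1000 bp, all settings added once the data had been seen. The lists of a strain differed in depth, and the part of depth in these counts was not tested beyond the settings given.

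RPN6 and PRE3 gained in all 3 strains, which was the case for 1.55% of all genes. RPN6 encodes a lid subunit that holds lid and core together, and its summit lay 469 bp before the start codon in WT at 37 °C with 6.70-fold (5.12 to 8.63), within the coding region of PMT1. In spt7-1180 the summit was at 363 bp with 1.86-fold (1.49 to 2.29), and in spt8Δ at 18 bp with 2.06-fold (1.67 to 2.51). The position of the RPN6 summit was thus different in each strain.

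PRE3, the gene of the caspase-like beta subunit 1, shares its 511 bp upstream gap with OST1, which is transcribed the other way. As for PRE2, a summit in this gap cannot be assigned to either gene alone. In WT at 37 °C PRE3 had 4 upstream summits. They lay 484, 332, 235 and 61 bp before the start codon, with folds of 6.16, 2.01, 3.58 and 2.15. In spt7-1180 at 37 °C a single summit lay 6 bp before the start codon, with 3.14-fold (2.60 to 3.76). In spt8Δ at 37 °C it lay at 93 bp, with 1.98-fold (1.51 to 2.55), 17 bp from PACE. Joined within 50 bp, the summits at 61 bp in WT and 93 bp in spt8Δ made a shared site. The summit of spt7-1180 did not join it.

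The remaining repeated gains were in both mutants or in WT and 1 mutant. RPT4 had summits 486 and 460 bp before its start codon in spt7-1180 (2.79-fold) and spt8Δ (3.17-fold) at 37 °C, both within the coding region of GCD1, its divergent neighbour. RPN3 had summits at 70 bp (2.09-fold) and 81 bp (2.45-fold) in the same lists, on the near side of PACE and without neighbouring coding sequence. RPN1, the gene of the largest scaffold subunit, had summits at 30 bp (3.795-fold) and 285 bp (2.52-fold) in spt7-1180 and at 418 bp (2.35-fold) in spt8Δ, the farther ones within the coding region of DAP2. The sites of RPT4 and RPN3 lay within 50 bp of each other in the mutants, and those of RPN1 did not.

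RPN8, whose product pairs with Rpn11 in the lid, already had a summit in WT at 25 °C, 51 bp before the start codon (2.61-fold). At 37 °C its summits lay at 465, 422 and 404 bp in WT (3.03-fold), spt7-1180 (1.97-fold) and spt8Δ (1.62-fold), all within the coding region of GPN2. PRE5, the gene of alpha subunit 6, had summits at 430 bp in WT (5.37-fold), in the coding region of TGL3, and at 393 bp in spt8Δ (2.21-fold). PRE9 was the reverse case, with summits at 25 °C only, at 279 bp in WT (2.98-fold) and at 345 bp in spt8Δ (1.71-fold), both within the coding region of CAF130. Summits inside a neighbour were thus part of several of these changes.

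At 25 °C, 3 proteasome genes had an upstream summit in all 3 strains (RPT2, PRE6 and PRE1), against 13.5% of all genes. At 37 °C there were 9, against 16.2%. The strongest upstream peak of the set was that of RPT2 in every list except WT at 25 °C, where PRE2 and PRE6 were above it. After RPT2 came RPN6 and RPT5 (6.45-fold, 225 bp) in WT at 37 °C, RPT6 and PRE1 in spt7-1180 at 25 °C, RPN1 and RPN4 in spt7-1180 at 37 °C, RPN4 and PRE10 (4.003-fold, 319 bp) in spt8Δ at 25 °C, and RPN4 and RPT4 in spt8Δ at 37 °C.

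RPN4 had upstream summits at 37 °C in all 3 strains, and at 25 °C in spt8Δ only. The gene is at chr4:415113-416708 on the reverse strand. In WT at 37 °C the summit lay 337 bp before the start codon with 4.64-fold (3.22 to 6.49; 32 reads over 6.12), just downstream of the half-site pair at 348 to 341 bp in the printed sequence. In spt7-1180 at 37 °C summits lay at 259 bp (3.76-fold, 3.17 to 4.43) and 94 bp (1.71-fold). In spt8Δ the summit lay at 313 bp at 25 °C (4.05-fold, 2.93 to 5.46), and at 398 bp (4.36-fold, 3.65 to 5.16) and 126 bp (2.84-fold) at 37 °C. None of the 6 upstream summits of RPN4 lay in neighbouring coding sequence.

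Within the coding region of RPN4, the strongest summit of a list stood higher among all peaks at 37 °C in each strain. In WT the percentile went from 51.34 (3.16-fold, 420 bp after the start codon) to 99.67 (10.44-fold, 8.23 to 13.07, at 1505 bp), which was the highest coding fold of the set in any list. In spt7-1180 it went from 73.19 (3.17-fold, at 844 bp) to 98.89 (5.98-fold, 5.24 to 6.81, at 1426 bp). In spt8Δ it went from 93.12 (5.62-fold, at 607 bp) to 97.4 (4.54-fold, at 843 bp). The coding summits numbered 5 and 6 in WT, 3 and 6 in spt7-1180 and 2 and 4 in spt8Δ, at 25 °C and 37 °C. The difference was wide in WT and spt7-1180 and narrow in spt8Δ, whose list at 25 °C already held a strong RPN4 peak.

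**Figure D4:**
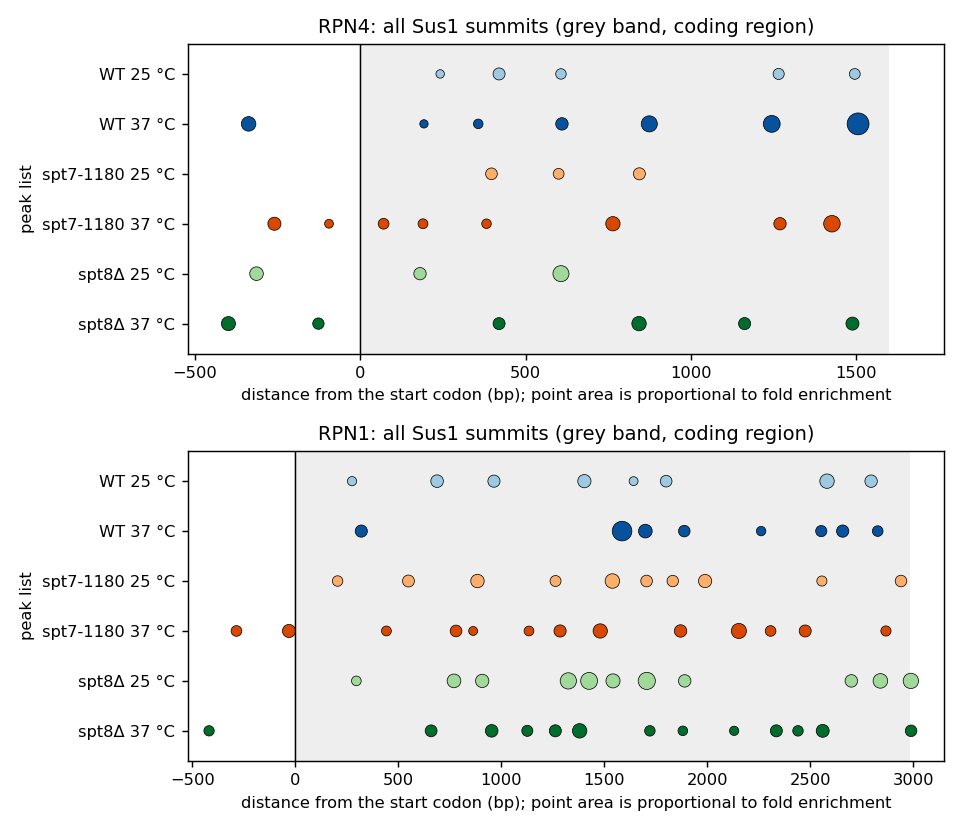
Positions of all Sus1 summits at RPN4 (top) and RPN1 (bottom) in the 6 lists (y axis) by distance from the start codon in bp (x axis), with point area proportional to fold enrichment and a grey band for the coding region. The largest RPN4 point is the 10.44-fold summit of WT at 37 °C, 1505 bp after the start codon, and RPN1 carried 8 to 11 coding summits in each list.

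The same comparison over the whole set, added once the data had been seen, found 5 genes whose strongest coding summit stood at a higher percentile at 37 °C in all 3 strains, beside 10.6% of all genes. They were RPT1, RPN1, RPN5, RPN9 and RPN4. RPT1 went from 41.14 to 86.81 in WT, from 77.07 to 98.4 in spt7-1180 and from 70.38 to 97.9 in spt8Δ. RPN9 went from 27.57 to 97.53, from 56.46 to 92.52 and from 80.16 to 92.93 in the same strains. RPT3, RPN12 and PRE9 were lower at 37 °C in all 3 strains, beside 10.3% of all genes, and RPN12 went from 80.3 to 35.22, from 66.3 to 4.58 and from 49.86 to 18.48. With 5 genes in the direction of higher and 3 in that of lower percentiles, no direction stood out beside the genome.

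Coding regions held most of the Sus1 summits of these genes, 471 of 599. At least 1 coding summit was found in 27 of the 33 genes in WT at 25 °C (all genes, 74.7%), 29 in WT at 37 °C (77.3%), 29 in spt7-1180 at 25 °C (75.2%) and 29 at 37 °C (76.3%), and 29 in spt8Δ at 25 °C (74.8%) and 28 at 37 °C (72.1%). Very short genes are in the background and not in the set. Over the 4661 genes within the range of coding lengths of the set, 471 to 2982 bp (a setting added once the data had been seen), the shares were 79.7%, 82.5%, 80%, 80.6%, 79.5% and 76.0%. A coding summit in every list was found for 22 of the 33 genes, among them all 6 ATPase genes. The share was 50.1% over all genes and 53.7% over genes within the range of coding lengths.

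Per kb of coding sequence, proteasome genes held more summits than the genome in each list. The density was 2.02 (95% Poisson interval 1.59 to 2.54) against 1.57 in WT at 25 °C and 2.30 (1.83 to 2.85) against 1.59 at 37 °C. In spt7-1180 it was 2.13 (1.69 to 2.66) against 1.71 at 25 °C and 2.41 (1.93 to 2.97) against 1.91 at 37 °C. In spt8Δ it was 1.83 (1.42 to 2.33) against 1.5 at 25 °C and 2.19 (1.74 to 2.72) against 1.59 at 37 °C. The genome value lay below the interval in both WT lists, in spt7-1180 at 37 °C and in spt8Δ at 37 °C, and inside it in spt7-1180 and spt8Δ at 25 °C. In WT at 25 °C and spt7-1180 at 37 °C it was only just below. The interval treats summits of the same gene as independent, so it is too narrow where summits cluster in a gene. The ratio ran from 1.22 to 1.45 against all genes. Against genes within the range of coding lengths of the set, without further matching, it ran from 1.21 to 1.44. In both mutants and in WT the density was higher at 37 °C, for the proteasome genes and for all genes. The intervals of the proteasome genes at 37 °C overlapped those at 25 °C.

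**Figure D5:**
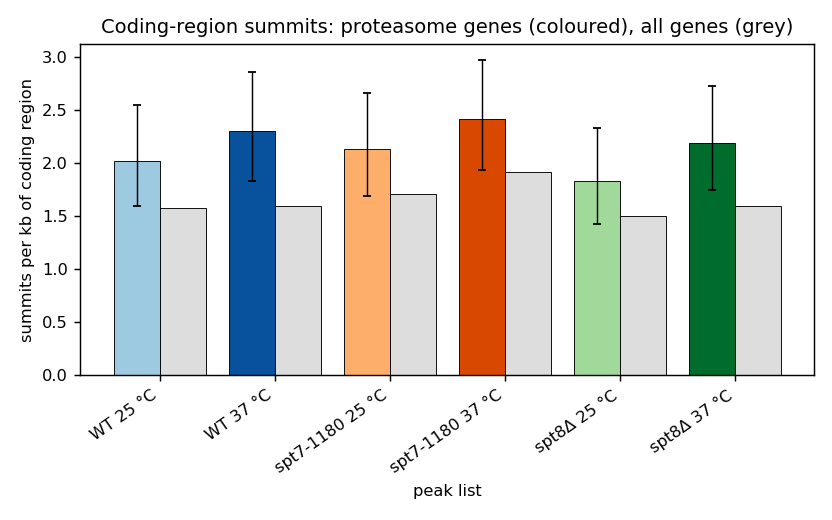
Sus1 summits per kb of coding region (y axis) in each of the 6 lists (x axis), with coloured bars for the 33 proteasome genes pooled, 95% Poisson intervals that cover counting error only, and grey bars for all 6002 genes. The coloured bars stand between 1.83 and 2.41, each above its grey bar.

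The density varied widely between the proteasome genes. PRE3 had 3.71 coding summits per kb as the mean of the lists, PRE2 3.47, PRE8 3.32, RPN1 3.24 and SCL1, the gene of alpha subunit 1, 3.07. RPN1 alone held 58 of the 471 coding summits, and without it the density of the set was 1.7 to 2.29. It was then 1.97 in WT at 25 °C and 2.29 in spt7-1180 at 37 °C, the lists where the genome value was only just below the interval. No interval was computed without RPN1, so whether the genome value would still lie below it was not tested. At the other end, PRE6 had 0.436 per kb, PUP3 0.27 from a single summit, and RPN10 none. RPN10 had no summit in any window of any list, which was so for 3.12% of all genes. Both ends of this order held genes of the core particle as well as of the regulatory particle.

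By fold as listed, high coding peaks were also found at other genes. RPT6 carried a 9.30-fold summit (7.49 to 11.43) in spt8Δ at 25 °C, 967 bp after the start codon. RPN1 carried 8.42-fold (6.55 to 10.66) in WT at 37 °C, at 1587 bp, and RPN7, a lid subunit gene, 8.03-fold (6.08 to 10.41) in the same list, at 496 bp. These 3 genes were chosen after their values were seen, and all were in lists of low background. Over the lists, 25.1% of the coding summits of the set lay in the last of 5 equal stretches of the gene and 15.7% in the first, against 21.6% and 18.1% over all genes. The lists were uneven: in WT at 37 °C the first stretch held 21.4% against 18.9%, and in WT at 25 °C the last held 21.6% against 20.9%.

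Downstream windows held 21 summits in 16 genes. In WT, 3 genes had a downstream summit at 25 °C (all genes, 9.36%) and 3 at 37 °C (12.2%). In spt7-1180 the numbers were 2 (8.65%) and 1 (10%), and in spt8Δ 4 (10.4%) and 8 (9.2%). The 8 genes in spt8Δ at 37 °C were RPT2, RPT4, RPT6, RPN1, SCL1, PRE9, PUP2 and PRE1, of which RPN1 and PUP2 also had 1 at 25 °C in that strain. The strongest downstream peak of the set was that of RPN13, a ubiquitin receptor gene, with 5.89-fold (4.43 to 7.69) in spt8Δ at 25 °C, 10 bp after the stop codon. RPN1 had 5.16-fold (3.82 to 6.83) in the same list and 2.92-fold (2.38 to 3.56) in spt8Δ at 37 °C, at 8 and 9 bp after the stop codon, so this site recurred between temperatures.

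The wider pathway was examined through 23 genes for assembly factors, proteasome-associated proteins, shuttle and Cdc48 proteins and ubiquitin supply. Upstream summits were found for 11 and 16 of them in WT at 25 °C and 37 °C, 11 and 12 in spt7-1180, with the same numbers in spt8Δ. Taken strain by strain in that order, the shares of all genes were 39.7%, 44.8%, 38.0%, 40.8%, 41.8% and 40.2%. Whether the pathway genes differ from these shares was not tested. The count was 11 in both WT and spt7-1180 at 25 °C, and the difference from the proteasome genes there was not tested. PBA1 (an assembly chaperone of the core), SEM1 (a small lid-associated protein that is also part of TREX-2), UBA1 (the ubiquitin-activating enzyme) and UBI4 (the polyubiquitin gene) had an upstream summit in all 6 lists. That was so for 5.8% of all genes. At SEM1 the folds were 3.40 and 6.88 in WT, 6.76 and 8.32 in spt7-1180 and 6.78 and 7.10 in spt8Δ. At UBI4, a heat-inducible gene, they were 4.42 and 5.88, 2.28 and 4.62, and 6.89 and 5.23 in the same order. NAS6, ECM29, UBP6 and NPL4 had summits in 5 lists, beside 8.95% of all genes. PACE was in the upstream region of ECM29, CDC48, UBA1 and UBI4.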

How the data were processed

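Sus1-MYC ChIP-exo reads were base-called with CASAVA 1.7 and aligned to sacCer3 with BWA 0.6.2, as the submitters' processing notes list them. The peak caller is not given in the sources used here; their columns are laid out as MACS2 writes them. The deposited fold enrichment is a ratio of pileup to local background, and the authors also deposited -log10 p-values and -log10 q-values, all peaks having a q-value under 0.05. Of 22 labelled samples, those without the tag were not analysed here.

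Summits were placed in windows of the RefSeq annotation with Python 3.11.15, pandas 2.3.3, numpy 2.4.6 and scipy 1.17.1, and drawn with matplotlib 3.10.9. Windows on the same stretch of DNA were counted for each gene they belong to. Reads at a summit and in its background were solved from the fold and the p-value under a Poisson model with a pseudocount of 1. Wilson and Poisson intervals are at 95% and cover counting error only, as PCR duplicates are not independent molecules. The scripts were tested on simulated data.

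Genes were named by rule: RPN4; genes with an upstream summit in 5, 6 or no lists; those gaining or losing it with heat in at least 2 strains and not the opposite in the third; the 3 strongest of each list; the strongest coding and downstream peak; genes with no summit in any window; and genes with a summit within 50 bp of PACE. The pathway genes, taken from general knowledge, were named where 5 or 6 lists had an upstream summit. The members and lists were chosen with earlier results of these data known. Alternatives were a q-value under 1e-05, lists of equal length, interval overlap or midpoint in place of the summit, upstream regions of 300 and 1000 bp, 250 bp after the stop codon, and summits in coding regions left out.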

Additional observations from a re-analysis of the deposited data

Results flagged for a closer look

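The number of proteasome genes with a coding summit was higher by 2 at 37 °C than at 25 °C in WT and fell by 1 (-1) in spt8Δ. The number with a downstream summit fell by 1 (-1) in spt7-1180 and was higher by 4 in spt8Δ, where RPT2, RPT4, RPT6, SCL1, PRE9 and PRE1 had a downstream summit at 37 °C only. These changes are listed because the strains moved in opposite directions. With 1 list a condition the difference between strains was not tested.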

How the results depend on the processing

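No paired analysis was possible because each condition had 1 peak list and no list for a replicate, and leaving out a replicate was not possible for the same reason. Of the recomputed values, 113 stayed within 1.5 times the reported value (for densities, within its counting interval), 43 moved and 3 reversed. An upstream region of 300 bp gave 9 genes in WT at 25 °C, 11 in WT at 37 °C, 8 in spt7-1180 at 37 °C and 10 in spt8Δ at 37 °C. The shares of all genes with that window were 22.3%, 26.6%, 21.7% and 21.9% in the same order. An upstream region of 1000 bp gave 24, 18, 26, 26 and 25 in WT, spt7-1180 and spt8Δ at 25 °C and spt7-1180 and spt8Δ at 37 °C in that grouping. Beside these stood 69.4%, 66.9%, 69.3%, 68.5% and 66.6% of all genes. Leaving out summits in coding regions gave 11 in WT at 37 °C, beside 33.6% of all genes. A q-value under 1e-05 gave 7 in spt8Δ at 25 °C, beside 31.7%. The change with heat in WT, 4 genes as reported, was 1 at a q-value under 1e-05, 2 with 300 bp, 2 with 1000 bp and 0 without summits in coding regions. In spt7-1180 it was 10 as reported and 3 with 300 bp. In spt8Δ, 1 as reported, it was 5 at a q-value under 1e-05, 0 with lists of equal length, by overlap and with 300 bp, and reversed to -1 with peak midpoints, with 1000 bp and without summits in coding regions. The genes with an upstream summit in all 6 lists, 2 as reported, were 1 at a q-value under 1e-05, 4 by interval overlap, 1 with 300 bp, 12 with 1000 bp, 1 without summits in coding regions and 1 without those near tRNA genes. Repeated gains with heat, 8 as reported, were 5, 4, 3 and 4 by overlap, 300 bp, 1000 bp and without coding summits, and repeated losses, 1 as reported, were 2 with lists of equal length, 0 with 300 bp and 0 with 1000 bp. Downstream counts by overlap were 5 and 8 in WT and 11 and 7 in spt7-1180, with 250 bp 5 and 11 in WT and 6 and 10 in spt7-1180, and by midpoint 2 in spt7-1180 at 37 °C and 2 in spt8Δ at 25 °C. The causes were not tested. The median height of a peak ran from 28 reads in WT at 37 °C to 99 in spt7-1180 at 37 °C, so that the counting error of a fold differed between lists.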
